A study of Mus musculus with 10 samples.

Results

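This account concerns 8 genes of mucin glycan and sialic acid metabolism in the mouse colon: Gne, Nans, Slc35a1, Casd1, Galnt12, B4galt1, Galt and Alg2. They are 8 of the 55416 gene rows in 2 deposited count tables. They were chosen on measured values: the genotype differences of 4 of them, B4galt1, Galnt12, Slc35a1 and Galt, were already known from these same libraries. Only genes in stretches of the genome where counts follow gene names were kept. Genotype values of the members, with any p-value or threshold passed, are therefore given as a description and support nothing beyond themselves. All 8 had enough counts to pass the expression filter.

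Whole colon RNA was sequenced after mice had drunk 2% dextran sulfate sodium (DSS) for 7 days, a treatment that injures the colonic epithelium and causes colitis, and no group without DSS is among the samples. The compared groups were 5 wild-type (WT) libraries and 5 libraries from mice deficient in Vista, an immune checkpoint protein. Vista deficiency was labelled "VISTA knockdown" in the 3 such libraries of the first table and "Vista-/-" in the 2 of the second, while the design text writes Vista-/-, and all 5 are called knockout here. The first table also held 3 WT libraries and the second 2 WT libraries, so libraries 1 to 3 of each genotype belong to the first and libraries 4 and 5 to the second. Strain, sex, age and the way the allele was made are not stated in those sources. The second-table labels give single-end reads of 50 bases.

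Mucins are the large secreted and membrane glycoproteins of the mucus layer, and most of their mass is sugar attached to serine and threonine. Polypeptide N-acetylgalactosaminyltransferases such as Galnt12 add the first sugar, galactosyltransferases such as B4galt1 lengthen the chains, and sialic acid often caps them. Sialic acid is built in the cytosol by Gne and Nans, activated to CMP-sialic acid in the nucleus, carried into the Golgi by Slc35a1, and can be O-acetylated there by Casd1. Galt belongs to the Leloir pathway that turns galactose into UDP-galactose, the donor used by B4galt1, and Alg2 is a mannosyltransferase of the lipid-linked precursor of N-glycans.

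Library totals ran from 3691322 to 4071238 counts, and 7.98% to 8.65% of a library's counts fell in the stretches used. These ran from the start of chromosome 4 to position 59801589 and from the start of chromosome 6 to position 30175126, the ends of the last genes tested there (mm10, GENCODE M21). Of 12 genes inside them from families that nearly every cell uses, such as ribosomal protein, proteasome and respiratory chain genes, 11 (91.7%) had 500 counts or more over all libraries, against 103 of 468 (22.0%) elsewhere. The stretches were first drawn from genes of this kind in these tables, so that contrast describes them and is no separate evidence. Rows elsewhere were left unread by name. In the first table the stretches held 8.35%, 8.013% and 8.294% of the counts in knockout 1 to 3. They held 8.649%, 8.567% and 8.645% in WT 1 to 3. In the second they held 8.074% and 8.251% in knockout 4 and 5, and 8.225% and 7.978% in WT 4 and 5. CPM on library totals does not allow for this. Casd1 is the 1 member on the shorter, chromosome 6 stretch. The row of Vsir, which encodes Vista, lies outside and held 27, 49, 33, 97 and 40 counts in knockout 1 to 5 and 42, 78, 82, 5 and 0 in WT 1 to 5, so it does not check the genotype labels. WT 4 and WT 5 lay away from the rest on the first principal component, at 44.3 and 48.3. The other WT libraries lay at −2.875 to 5.98 and the knockout libraries at −25.4 to −10.2, so the genotypes did not overlap on it.

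The starts of 3 members are shown because B4galt1 had the largest genotype difference, in one direction, while Slc35a1 and Galt differed in the other and followed each other most closely across libraries. RefSeq (GRCm38.p6) gave promoter windows, 250 bases before to 50 after a start, for 5 of the 8 members. Capitals mark the GC box GGGCGG, which 35.7% of all 32851 such windows hold, and the CCAAT box CCAAT, which 37.4% hold, each searched on both strands. Neither motif overlaps another hit here.
B4galt1, chr4:40853935-40854234, minus strand: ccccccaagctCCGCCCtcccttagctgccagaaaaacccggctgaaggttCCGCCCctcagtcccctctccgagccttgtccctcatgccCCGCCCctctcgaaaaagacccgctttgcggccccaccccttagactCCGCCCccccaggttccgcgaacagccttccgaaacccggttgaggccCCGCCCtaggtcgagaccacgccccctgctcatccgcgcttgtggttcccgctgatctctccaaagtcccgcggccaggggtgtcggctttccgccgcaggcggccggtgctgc
Slc35a1, chr4:34687389-34687688, minus strand: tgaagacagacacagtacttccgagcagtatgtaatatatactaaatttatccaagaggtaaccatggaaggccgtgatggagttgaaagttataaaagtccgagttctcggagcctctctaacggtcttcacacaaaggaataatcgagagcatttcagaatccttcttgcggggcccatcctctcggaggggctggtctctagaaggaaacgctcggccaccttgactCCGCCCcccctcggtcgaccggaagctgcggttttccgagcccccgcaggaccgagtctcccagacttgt
Galt, chr4:41755267-41755566, plus strand: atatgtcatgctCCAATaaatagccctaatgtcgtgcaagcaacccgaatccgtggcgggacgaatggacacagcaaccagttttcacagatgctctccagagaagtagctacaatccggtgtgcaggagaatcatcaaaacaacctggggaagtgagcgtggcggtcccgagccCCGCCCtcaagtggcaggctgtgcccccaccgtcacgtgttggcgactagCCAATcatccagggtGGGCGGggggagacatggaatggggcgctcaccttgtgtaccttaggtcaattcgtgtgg

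The B4galt1 window held 5 GC boxes and no CCAAT box, and its GC content was 68.3%, against a median of 52.7% over all windows. As many GC boxes were present in 2.71% of windows. The Slc35a1 window held 1 GC box at a GC content of 52.3%, and the Galt window held 2 GC boxes and 2 CCAAT boxes at 56.3%. RefSeq lists a second Galt window, chr4:41756012-41756311, with neither motif. The windows of Gne, at 51.3% and 63.0% GC, also held neither. Those of Casd1, at 40.7% and 72.7% GC, held 1 GC box each and no CCAAT box. Whether these motifs bear on the genotype differences was not tested.

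Of the 4 sialic acid genes, Slc35a1 was lower in knockout colons and passed the threshold, an adjusted p under 0.05 in edgeR's quasi-likelihood test. Gne, Nans and Casd1 did not pass. Levels are in CPM, the reads of a row for every 1000000 counts of its library. Gne (ENSMUSG00000028479, chr4:44034075-44084177, minus strand) encodes the enzyme that starts sialic acid synthesis and sets its rate. It stood at 2871, 2469, 2463, 1787 and 2728 CPM in knockout 1 to 5 and at 2822, 2741, 2638, 2571 and 2129 CPM in WT 1 to 5. The genotypes overlapped, with knockout 4 the lowest of all. Knockout relative to WT, the fitted log2 fold change was −0.04 ± 0.12 (SE), and its 95% interval ran from −0.297 to 0.220.

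Nans (ENSMUSG00000028334, chr4:46489248-46503632, plus strand), the sialic acid synthase gene, had 3177, 2869, 2605, 2010 and 2572 CPM in knockout 1 to 5. WT 1 to 5 had 2117, 2332, 2400, 2013 and 1871 CPM. Of the knockout libraries, 4 lay above every WT library and knockout 4 lay among them. Its log2 fold change was 0.33 ± 0.10 (SE), and it did not pass the threshold in edgeR. The exons of Trim14 on the opposite strand cover 29.6% of the Nans exon bases, and the Trim14 row held 52.9 to 83.0 CPM in all libraries. That level does not show how reads on the shared bases were counted. The treatment of strand is not stated in the sources, so the value of Nans is uncertain to that extent.

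Slc35a1 (ENSMUSG00000028293, chr4:34663257-34687438, minus strand), the Golgi CMP-sialic acid transporter gene, had 586, 481, 595, 464 and 511 CPM in knockout 1 to 5. In WT 1 to 5 it had 575, 748, 739, 724 and 727 CPM. WT 1 lay among the knockout libraries and the other 4 WT libraries lay above all of them. The mean was 527 ± 60.0 CPM in the knockout and 703 ± 71.8 in WT (SD, n = 5 each), and the fitted log2 fold change was −0.39 ± 0.10 (SE), a 1.31-fold lower level.

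Casd1 (ENSMUSG00000015189, chr6:4600839-4643355, plus strand), the sialic acid O-acetyltransferase gene, had 697, 546, 603, 347 and 683 CPM in knockout 1 to 5. It had 640.2, 550.2, 580 and, in the second table, 329 and 346 CPM in WT 1 to 5. The 3 low libraries were knockout 4, WT 4 and WT 5, all of the second table, and the 7 others lay between 546 and 697. Its log2 fold change was 0.31 ± 0.17 (SE), with a 95% interval of −0.076 to 0.688, and was 0.086 without knockout 5 and −0.016 without WT 4, WT 5 and the table term.

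Among the genes that build and extend the chains, B4galt1 was higher and Galnt12 and Galt were lower in the knockout. Galnt12 (ENSMUSG00000039774, chr4:47091909-47123070, plus strand), which encodes one of the enzymes that start mucin-type O-glycans and is known for its expression in the colon, had 360.2, 358, 409, 299 and 337 CPM in knockout 1 to 5. WT 1 to 5 had 448, 458, 558, 647 and 598 CPM. All 5 knockout libraries lay below the lowest WT library. The mean was 353 ± 40.0 CPM against 542 ± 87.2 (SD, n = 5 each), and the log2 fold change was −0.59 ± 0.12 (SE).

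B4galt1 (ENSMUSG00000028413, chr4:40804602-40854005, minus strand) encodes the Golgi galactosyltransferase that adds galactose to N-acetylglucosamine ends. It had 1175, 1365, 979, 727 and 819 CPM in knockout 1 to 5 and 855, 598, 618, 490 and 546 CPM in WT 1 to 5. Within each table every knockout library lay above every WT library. Across tables, knockout 4 and 5 lay below WT 1, so the ranges overlapped. The log2 fold change was 0.72 ± 0.14 (SE).

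Galt (ENSMUSG00000036073, chr4:41755228-41758695, plus strand), the galactose-1-phosphate uridylyltransferase gene, was the shortest gene of the 8. It had 114, 104, 117, 105 and 102 CPM in knockout 1 to 5 and 125, 140.1, 132, 135 and 155 CPM in WT 1 to 5, with no overlap. The log2 fold change was −0.32 ± 0.08 (SE), a 1.24-fold lower level, on 390 to 573 counts a library. How the counting treated strand is not stated in the sources, so reads from the opposite strand could be among the counts of Galt, and its value is uncertain to that extent.

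Alg2 (ENSMUSG00000039740, chr4:47465067-47474333, minus strand), the mannosyltransferase gene of N-glycan assembly, was the 1 member whose genotype difference changed sign between the tables. It had 180.1, 145, 192, 137 and 149 CPM in knockout 1 to 5 and 154, 143, 127, 175 and 195 CPM in WT 1 to 5. In the first table the knockout mean was the higher and in the second the WT libraries lay above the knockout ones. The pooled log2 fold change was 0.05 ± 0.14 (SE), with a 95% interval of −0.248 to 0.347.

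**Figure D1:**
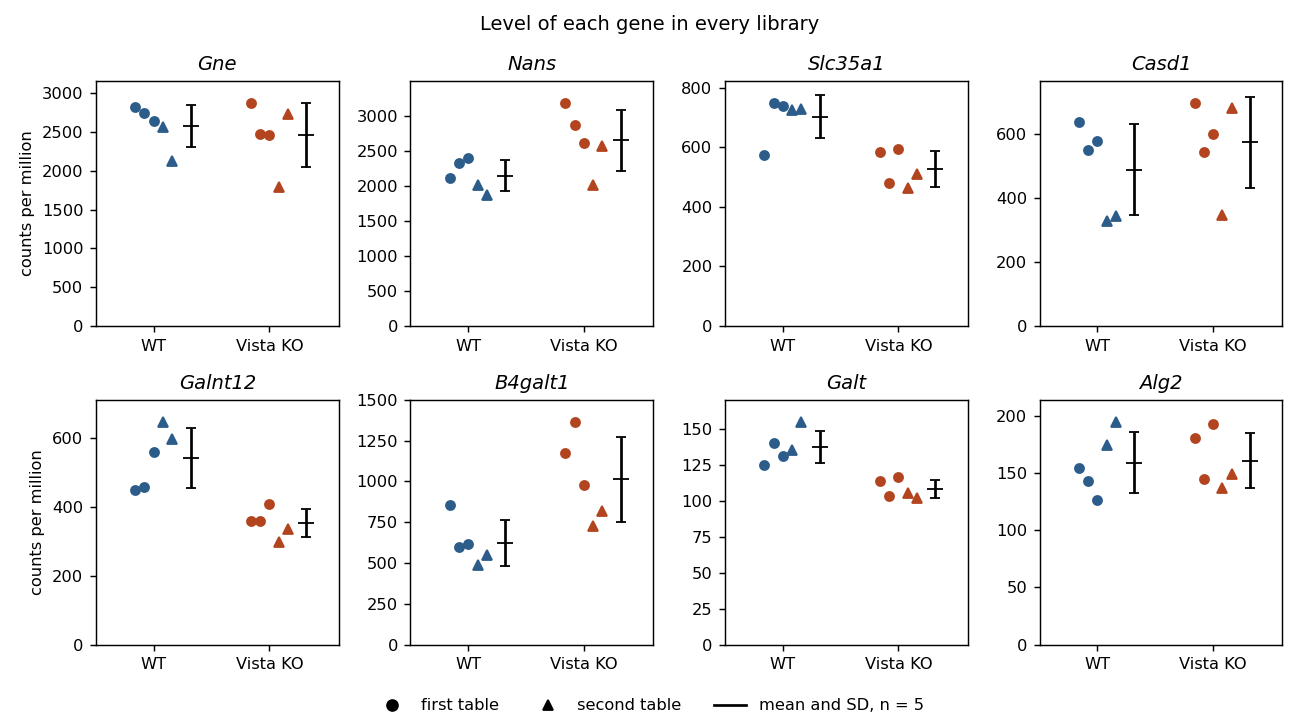
Level in CPM of the 8 genes in each library, WT against Vista knockout (KO), 1 panel a gene. Circles are libraries of the first table and triangles those of the second, and the bars at the right of each group are the mean and SD of 5 libraries. Galnt12 and Galt show no overlap between genotypes, while the 3 low points of Casd1 are all triangles.

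In the fit of all 10 libraries with the table as a term, 4 of the 8 members passed that threshold in edgeR. B4galt1 was higher and Galnt12, Slc35a1 and Galt were lower in the knockout. Voom put the same 4 past it, and DESeq2 put these and Nans past it. Of all rows, voom put 564 past it and DESeq2 840, against 548 in edgeR. Over all 9736 rows tested 5.63% passed in edgeR, 2.70% higher and 2.93% lower. Inside the stretches 9.09% of the 352 rows tested passed, 8 of them higher and 24 lower. The members were picked with these calls known, so nothing is read from their share or their directions. Their median log2 fold change was 0.006 and that of all rows 0.019. In bulk tissue, a change in the number of cells that make a transcript and a change of transcript per cell cannot be told apart. For 2 members, Galnt12 and Galt, the genotype ranges did not overlap over the 10 libraries, as for 7.22% of all rows.

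These calls rest on few libraries. B4galt1 no longer passed without WT 4, with a log2 fold change of 0.70, and Galnt12 without WT 4 (−0.53) or WT 5 (−0.56). Slc35a1 stayed past the threshold on leaving out knockout 5 or WT 1 and on leaving out no other single library. Galt did so on leaving out none. Without WT 4, WT 5 and the table term, 0 of the 8 passed in edgeR, with log2 fold changes of 0.58 for B4galt1, −0.45 for Galnt12, −0.36 for Slc35a1 and −0.27 for Galt.

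The genotype difference had the same sign in both tables for 7 members, all but Alg2. B4galt1, Galnt12, Slc35a1 and Galt among them were picked on values of these same libraries, so nothing is read from that agreement. B4galt1 had a log2 fold change of 0.80 ± 0.18 (SE) in the first table, where it was the 1 member past the threshold in edgeR, against 6.06% of all rows. In the second it had 0.58 ± 0.16. Galnt12 had −0.34 ± 0.11 in the first and −0.97 ± 0.16 in the second, Slc35a1 −0.27 ± 0.12 and −0.57 ± 0.15, and Galt −0.21 ± 0.09 and −0.48 ± 0.15. With 2 libraries of each genotype in the second table, 0 members passed in edgeR, against 0.856% of all rows. The 4 with an unadjusted p under 0.05 there were those picked on known genotype differences, so nothing is read from their number. DESeq2 put 1 member, Galnt12, past the threshold in the second table and voom 0. Of all rows, 439 passed there in DESeq2 and 28 in voom, against 85 in edgeR. In the first table DESeq2 put B4galt1 and Nans past the threshold, and voom B4galt1 alone. There 657 of all rows passed in DESeq2 and 525 in voom, against 596 in edgeR.

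**Figure D2:**
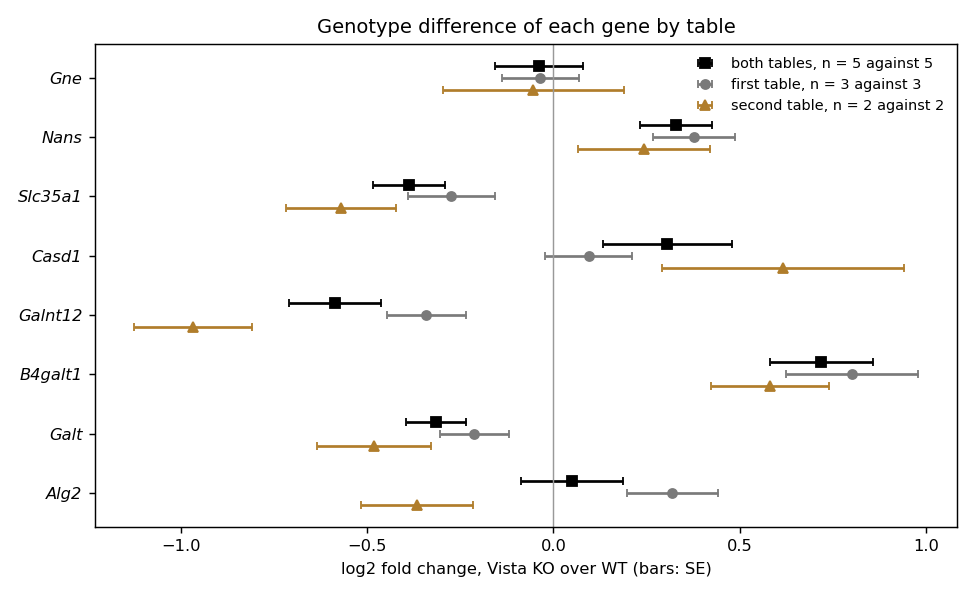
Log2 fold change of knockout over WT for each of the 8 genes, from both tables together (squares), the first table (circles) and the second (triangles), with the SE as bars. Galnt12, Slc35a1 and Galt lie left of 0 and B4galt1 right of it in all 3 fits, and Alg2 changes side between the tables.

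Whether a genotype difference depended on the table was tested as an interaction. An interaction is built from genotype differences of these same libraries, some of which were known beforehand. It is therefore given as a description for the members. Alg2 moved from 0.32 to −0.37, an interaction of −0.68 ± 0.19 (SE, log2) whose adjusted p was 0.110 in edgeR. Galnt12 had an interaction of −0.62 ± 0.18 (SE), also with an adjusted p of 0.110. Neither passed, and 0 of 8 members did in edgeR, against 2.05% of all rows, although both had an unadjusted p under 0.05. The share of all rows under that unadjusted cutoff is not given here. In DESeq2 1 member, Galnt12, passed the interaction test and in voom 0. Of all rows, 343 passed that test in DESeq2 and 154 in voom, against 200 in edgeR.

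Levels were also compared between the tables at equal genotype. B4galt1 was at 1173 ± 193 CPM in knockout 1 to 3 and 773 ± 64.9 in knockout 4 and 5, and at 690.4 ± 143 in WT 1 to 3 and 518 ± 39.8 in WT 4 and 5 (SD). The difference of second over first table was −0.56 ± 0.14 (SE) on the log2 scale for B4galt1, −0.57 ± 0.18 for Casd1 and −0.33 ± 0.10 for Nans. Adjusted p-values of these in edgeR were 0.292, 0.373 and 0.339. No member passed this test in edgeR, against 0.0103% of all rows, but these 3 had an unadjusted p under 0.05. For that unadjusted cutoff the share of all rows is not given here. DESeq2 put B4galt1 past the threshold and voom 0 members. Of all rows, 81 passed in DESeq2 and 4 in voom, against 1 in edgeR. The tables differ in the build named in their processing notes and may hold different mice, and these cannot be told apart.

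Ratios of 2 genes within a library do not depend on how libraries are scaled. Of the 28 pairs of members, 10 had knockout and WT ratios that did not overlap, against 9.58% of the 61776 pairs of tested rows inside the stretches. All but 1 of those 10 include a member already known to differ, so their number adds nothing to the calls. The exception is Nans and Gne, enzymes of the same sialic acid path. The ratio of Nans to Gne counts was 1.11, 1.16, 1.06, 1.13 and 0.943 in knockout 1 to 5 and 0.750, 0.851, 0.910, 0.783 and 0.879 in WT 1 to 5. The lowest knockout library was knockout 5 and the highest WT library WT 3, and the gap between them was small beside the spread within each genotype. This pair was singled out after its values were seen.

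In 2 other pairs, also singled out after their values were seen, the gap was wider. The ratio of Slc35a1 to Nans, transporter over synthase, was 0.168 to 0.231 in the knockout and 0.272 to 0.389 in WT. The ratio of B4galt1 to Galnt12 was 2.39 to 3.81 in the knockout and 0.756 to 1.91 in WT, with means of 2.87 ± 0.642 and 1.20 ± 0.447 (SD, n = 5 each). In every knockout library B4galt1 had more than double the counts of Galnt12, and in WT 4 and WT 5 it had fewer.

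**Figure D3:**
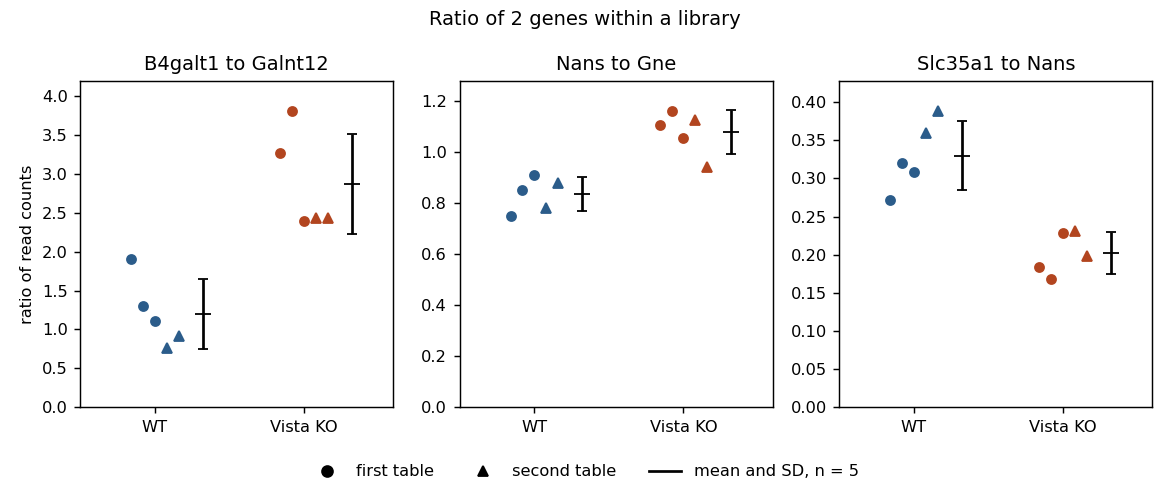
Ratio of the read counts of 2 genes in each library for 3 pairs, WT against Vista knockout (KO), with circles for the first table, triangles for the second, and bars for the mean and SD of 5 libraries. The genotypes do not overlap in any of the 3 panels, and the gap is narrowest for Nans to Gne.

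To set levels of different genes side by side, CPM was divided by the exon length of each gene in kilobases. Sialic acid synthesis genes were the most abundant, with a mean over the 10 libraries of 523 ± 91.0 CPM per kilobase for Nans and 397 ± 52.9 for Gne (SD). Slc35a1 followed at 268 ± 48.6, then Galnt12 at 196 ± 51.8, B4galt1 at 193 ± 67.4 and Casd1 at 132 ± 35.0. Galt, at 49.8 ± 7.14, and Alg2, at 46.2 ± 6.95, were lowest. Nans was above Gne, Gne above Slc35a1, Slc35a1 above Galnt12 and B4galt1 above Casd1 in all 10 libraries. The order of Galnt12 and B4galt1 was not fixed, B4galt1 being the lower in 4 of 10 libraries, and Galt was above Alg2 in 7 of 10. By genotype, Galnt12 stood at a mean of 154 ± 17.5 in the knockout and 237 ± 38.1 in WT, and B4galt1 at 239 ± 61.4 and 147 ± 33.0. Both genes were picked on genotype differences already known from these libraries, so nothing is read from the order of these means.

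The wider pathway was read from 289 symbols of sialic acid, O-glycan, galactose, nucleotide sugar, N-glycan, other glycan and goblet cell genes, of which 280 had a row. Of these, 18 lay inside the stretches and all 18 passed the expression filter, 8 of them the members. Of the other 10, 1 was lower in the knockout, 0 were higher and 9 did not pass in edgeR, beside the 5.63% of all rows. Their median log2 fold change was −0.047.

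The gene that passed was Gba2, the non-lysosomal glucosylceramidase. It had 44.0, 57.5, 49.4, 63.0 and 61.1 CPM in knockout 1 to 5 and 68.2, 73.6, 68.2, 89.2 and 87.0 in WT 1 to 5, with no overlap. Its log2 fold change was −0.46 ± 0.09 (SE). It no longer passed without knockout 1, WT 2, WT 4 or WT 5.

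C1galt1, the core 1 galactosyltransferase that acts directly after the Galnt enzymes, stood at 914 to 1116 CPM in the knockout and 1028 to 1131 in WT. Its log2 fold change was −0.07 ± 0.08 (SE) with a 95% interval of −0.246 to 0.106. The difference between Galnt12 and C1galt1 was not itself tested. Impad1, a Golgi phosphatase of the sulfation pathway, had 0.09 ± 0.07, Manea, an N-glycan endomannosidase, −0.02 ± 0.08, and Ugcg, the glucosylceramide synthase, 0.07 ± 0.11. Pigo, of GPI anchor synthesis, had 0.03 ± 0.10.

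The widest differences were in 2 low genes that did not pass. Slc13a1, a sulfate transporter, had 4.91 to 17.1 CPM in the knockout and 19.2, 11.2, 26.8, 43.5 and 137 CPM in WT 1 to 5, a log2 fold change of −1.76 ± 0.49 (SE) with an adjusted p of 0.0592 in edgeR. It was −0.79 without WT 4, WT 5 and the table term. Fut9, a fucosyltransferase that makes the Lewis x structure, had 38.8, 31.7, 28.6, 9.13 and 57.7 CPM in knockout 1 to 5 and 15.7, 10.2, 29.3, 4.03 and 3.52 in WT 1 to 5. Its log2 fold change was 1.61 ± 0.54 (SE) with an adjusted p of 0.102 in edgeR, and knockout 3 and 4 lay among the WT libraries. Without knockout 5 it was 0.97, and without WT 4, WT 5 and the table term 0.87. Over the alternatives tried, the adjusted p of Slc13a1 ran from 8.2e-18 to 0.250 and that of Fut9 from 4.3e-15 to 0.337, each lowest value coming from the fit with no filter on low counts.

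**Figure D4:**
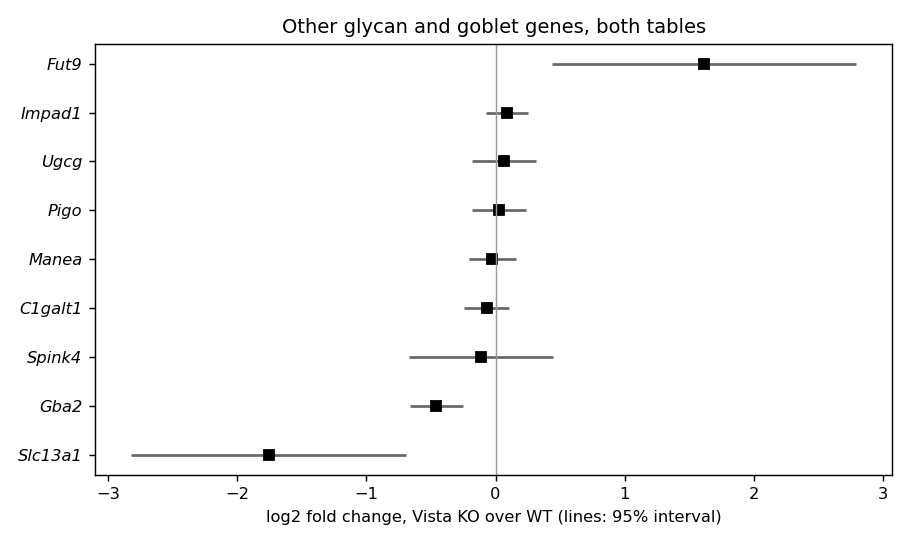
Log2 fold change of knockout over WT for 9 of the 10 other listed glycan and goblet cell genes, from all 10 libraries, with 95% intervals as lines. Intervals of 6 genes cross 0, and those of Fut9 and Slc13a1 are the widest.

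No mucin gene lies inside the stretches, and the 1 goblet cell product there is Spink4, a peptide gene of goblet cells. It had 2854, 1795, 2672, 690 and 2136 CPM in knockout 1 to 5 and 2481, 2526, 3634, 1442 and 1347 CPM in WT 1 to 5, with a log2 fold change of −0.11 ± 0.25 (SE). The low libraries were knockout 4, WT 4 and WT 5, the same 3 that were low in Casd1. Of 12 epithelial markers listed, 5 lay inside (Cdh17, Klf4, Esrp1, Cftr and Met), and their summed level was 7297 to 8304 CPM in the knockout and 7163 to 9166 in WT. Cdh17 and Klf4 make up most of that sum, and 2 of the 5 passed the threshold in opposite directions. Cftr, the chloride channel gene, was lower in the knockout, at 266 to 525 against 471 to 728 CPM with a log2 fold change of −0.69 ± 0.16 (SE). Met, the hepatocyte growth factor receptor gene, was higher, at 287 to 374 against 215 to 305 CPM with a log2 fold change of 0.42 ± 0.11 (SE). All 5 were present in every library, as the colon label asks. Summed levels of the 4 B-cell markers inside, of 8 listed (Pax5, Cd72, Bach2 and Lyn), were 414 to 717 CPM in the knockout, 399 to 607 in WT 1 to 3, and 216 and 187 in WT 4 and 5. Lyn made up most of that sum, and none of the 4 passed in the pooled fit. Pax5, Cd72 and Bach2 had log2 fold changes of −0.85, −0.70 and −0.77 in the first table and 3.725, 2.37 and 2.33 in the second. Their interactions passed in edgeR, and that of Lyn, which had 0.31 and 1.05, did not. WT 4 and WT 5 are also the libraries without either of which the Galnt12 call was lost, and WT 4 that of B4galt1. The part of these markers in those calls was not tested.

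The other listed cell types gave fewer markers inside. Col1a2, 1 of 6 fibroblast markers, was at 551 to 1141 CPM in the knockout and 582 to 1211 in WT, and the smooth muscle sum of Tpm2 and Flnc, 2 of 7, at 709 to 1583 and 908 to 1614. The endothelial sum of Cav1 and Gng11, 2 of 6, was at 172 to 560.4 CPM in the knockout and 217 to 407 in WT. Within it Gng11 was lower in the knockout and passed, at 14.5 to 39.4 against 41.1 to 68.5 CPM, a log2 fold change of −1.03 ± 0.19 (SE), and Cav1 did not pass. Tox, 1 of 7 T-cell markers, passed at 48.1 to 63.0 against 62.8 to 112 CPM, a log2 fold change of −0.59 ± 0.15 (SE). The enteric neuron sum of Tac1 and Penk, 2 of 6, was at 216 to 719 and 191 to 365 CPM and joins genes that passed in opposite directions. Tac1 was higher in the knockout, with a log2 fold change of 1.498 ± 0.248 (SE), and Penk lower, at −1.03 ± 0.24 (SE). None of the 7 myeloid markers lay inside. These marker calls were not recomputed under the alternatives, and the part of these cells in the members' differences was not tested.

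Genes with the most similar course over the 10 libraries were found among 302 other protein-coding genes tested inside the stretches, by the root-mean-square difference of log2(CPM + 0.5) after centring each gene. Slc35a1 and Galt were each other's nearest, at 0.108, where the median over candidates was 0.333 for Slc35a1 and 0.289 for Galt. Rmdn1 (0.128) and Hint2 (0.134) came next for Slc35a1, and Chchd7 (0.109) and Xpa (0.114) for Galt. Galnt12 was nearest to Tmem246 (0.151), Stx17 (0.159) and Asph (0.170). B4galt1 had no neighbour as close, its nearest being Unc13b (0.253), Tmem64 (0.266) and Met (0.297). Genes of small spread score low on this measure by construction, and all share the same libraries and totals. The genotype difference was not removed first, so genes that differ in the same direction, as Slc35a1 and Galt do, are also drawn together.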

How the data were processed

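The deposited values are raw read counts per Ensembl mouse gene for 10 colon libraries in 2 tables of 55416 identical rows. Per the submitters' processing notes the authors used HISAT2 2.2.1 and featureCounts 2.0.1, naming the build GRCh38, for the first table, and HISAT2, featureCounts 2.0.1 and mm10 for the second. Annotation and strandedness: not given in the sources used here. GENCODE M21 named 52083 rows and left 3333 unnamed, which stayed in totals and tests.

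Counts were fitted with edgeR 4.0.16 (R 4.3.3): TMM scaling, filterByExpr, quasi-likelihood F test, Benjamini-Hochberg adjustment over all rows tested and a threshold of 0.05. SE is the log2 fold change divided by the square root of its F statistic. The pooled fit has the table as a covariate, each table was fitted alone, and the interaction and the table term were tested. CPM was computed on library totals. DESeq2 1.42.0, limma 3.58.1 voom, RLE factors, scaling on the chromosome 4 and 6 stretches, no filter, no covariate and left-out libraries were alternatives.

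All 8 members are named, as are 9 of the 10 other listed glycan genes tested inside the stretches, the last being not reported here, and the 3 genes nearest to each member past the threshold. Members and lists were chosen with earlier results of these data known. No 2 libraries of the 45 pairs agreed within counting noise, the lowest mean chi-square per row being 4.56. The design text names 3 biological replicates per group and 5 are present, so a p-value covers the spread among the libraries given, some of which could be technical.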

Additional observations from a re-analysis of the deposited data

Results flagged for a closer look

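In Slc35a1, WT 1 stood apart from the other 4 WT libraries, at 575 CPM against 724 to 748. In Slc13a1, WT 5 stood apart, at 137 CPM against 11.2 to 43.5 in the other WT libraries. Of 36 groups of 5 libraries examined in 18 genes, 2 were set apart in this way, beside 1.8 expected if chance alone does so in 1 of 20.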

How the results depend on the processing

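No paired analysis was possible because no replicate number is common to both genotypes in the labels. With DESeq2, 840 pooled, 439 second-table, 343 interaction and 81 table-difference rows passed, against 548, 85, 200 and 1 in edgeR with TMM. With no filter on low counts, 1260 pooled, 1322 first-table, 2 second-table, 717 interaction and 469 table-difference rows passed, and 596 first-table rows with the filter. With voom, 28 second-table and 4 table-difference rows passed. Without WT 4, WT 5 and the table covariate there were 78 pooled rows, 0 members and 0 other glycan genes, and turned Casd1 to −0.016 and Ugcg to −0.075. Scaling from the chromosome 4 and 6 stretches left 2 members, B4galt1 and Galnt12, past the threshold, and put 52.3% of all pooled calls on the higher side, against 48.0%; with no filter it was 57.9%. Of the other glycan genes, 2 passed with DESeq2 or voom, 3 with no filter and 0 without the table covariate.

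Leaving out 1 library at a time gave 223 to 1028 pooled, 158 to 456 first-table, 0 to 5 second-table (an alternative chosen after seeing the data, in which the lone library of a genotype is assumed to vary like the others), 57 to 483 interaction and 1 to 202 table-difference rows, 0 to 3 members and 0 to 2 other glycan genes. The pooled count was lowest without WT 4 and highest without knockout 5. The log2 fold change then ran from −0.137 to 0.039 for Gne, −0.045 to 0.131 for Alg2, −0.083 to 0.007 for Manea, −0.047 to 0.078 for Pigo, −0.041 to 0.126 for Ugcg and −0.435 to 0.053 for Spink4. B4galt1, Galnt12, Slc35a1 and Galt kept their sign in all 17 alternatives and lost the call in 3, 3, 10 and 13 of them. Nans passed in 3 of 17. For these changes the cause was not tested. Counts of 13 to 220 a library limit Fut9, and 20 to 505 limit Slc13a1.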
